A study of Mus musculus with 24 samples.

Results

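NKX2-1, TBX4 and FOXF2 are transcription factors that pattern the developing lung, and their levels were followed across 8 mouse tissues. The genes were picked by name from a table of 7493 genes, with earlier results of these data known, because their values had stood out in lung. Their lung levels are therefore given as a description with no test, and tests are kept for other genes. NKX2-1 was found at about 200 FPKM (fragments divided by the length of the gene and by the total assigned to genes in that library) in every lung library. TBX4 and FOXF2 were found there at about 10 to 30 FPKM. Outside lung the 3 genes together had 7 reads in 21 libraries.

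Bulk RNA sequencing had been done on lung, stomach, brain, aorta, heart, kidney, liver and spleen of mice with a bacterial artificial chromosome carrying human SENCR, a long non-coding RNA antisense to FLI1. Each tissue had 3 libraries, 24 in all. Every animal carried the transgene as far as the titles say, so no value here speaks of its effect, and the labels used here give no strain, age or sex. The design text calls the libraries biological triplicates without saying which came from the same animal, so p-values measure the spread between these libraries.

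NKX2-1 is a homeodomain protein needed to form the lung from foregut endoderm, and it is also made in thyroid and ventral forebrain. In the lung it acts in epithelium, where it drives the surfactant genes. TBX4 is a T-box protein of the lung mesenchyme that acts upstream of FGF10 in branching, and it is also known for its part in hindlimb growth. FOXF2 is a forkhead protein of gut and lung mesenchyme, close to FOXF1, and is known from pericytes of brain vessels. Adult lung keeps all 3 in some of its cells, but levels in a whole organ do not show which cells.

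Because the 3 genes share a lung pattern, the stretch of mouse genome around each start site is shown, from 250 bases before the start to 50 after it. The sequences are RefSeq's, on GRCm38.p6. Nkx2-1 lies at chr12:56536859-56537158 on the minus strand, Tbx4 at chr11:85896515-85896814 on the plus strand and Foxf2 at chr13:31625566-31625865 on the plus strand. Capitals mark the GC box GGGCGG on either strand and, in Tbx4 alone, the letters TATAAA of the TATA box, on the strand opposite to the gene.
Nkx2-1: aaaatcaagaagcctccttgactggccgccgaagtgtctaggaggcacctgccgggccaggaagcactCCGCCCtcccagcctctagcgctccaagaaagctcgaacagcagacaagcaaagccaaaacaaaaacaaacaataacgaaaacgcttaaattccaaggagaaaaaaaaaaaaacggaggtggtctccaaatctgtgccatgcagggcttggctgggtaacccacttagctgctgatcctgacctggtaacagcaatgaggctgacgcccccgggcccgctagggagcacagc
Tbx4: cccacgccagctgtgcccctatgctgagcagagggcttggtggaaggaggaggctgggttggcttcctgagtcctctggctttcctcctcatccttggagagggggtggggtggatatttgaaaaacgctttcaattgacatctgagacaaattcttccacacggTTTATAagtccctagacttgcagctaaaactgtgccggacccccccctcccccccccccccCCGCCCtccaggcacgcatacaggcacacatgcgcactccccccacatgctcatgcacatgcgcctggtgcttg
Foxf2: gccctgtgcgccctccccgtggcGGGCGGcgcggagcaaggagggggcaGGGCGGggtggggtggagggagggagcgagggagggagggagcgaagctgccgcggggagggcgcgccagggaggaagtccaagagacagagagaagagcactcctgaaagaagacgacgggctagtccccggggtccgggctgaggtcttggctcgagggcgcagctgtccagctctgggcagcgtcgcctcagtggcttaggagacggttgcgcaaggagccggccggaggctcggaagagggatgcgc

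The starts of the 3 genes were unlike in base composition. GC content was 53.7% at Nkx2-1, 59.0% at Tbx4 and 71.3% at Foxf2, against a median of 52.7% over 32851 mouse promoters. Foxf2 had 27 CpG pairs, Nkx2-1 had 12 and Tbx4 had 8, against a median of 7. Read along the printed strand, a GC box began 182 bases before the start of Nkx2-1, 24 bases before that of Tbx4, and 227 and 201 bases before that of Foxf2. The box was common, with 35.7% of promoters holding it. The letters TATAAA lay on the minus strand 85 bases before the start of Tbx4, a plus-strand gene, and 13.6% of promoters held those letters on either strand. Motifs of the factors' own families were searched on both strands: CAAGTG for NKX2 proteins, GGTGTGA for T-box proteins and TGTTTAC for forkhead proteins. None of these letters was in any of the 3 windows, and they were in 13.6%, 3.98% and 3.65% of all promoters. The match is of letters in 300 bases and bears on no factor's binding.

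NKX2-1 gave 216, 207 and 225 FPKM in lung replicates 1, 2 and 3, a mean of 216 ± 9.33 FPKM (SD, n = 3). In brain it gave 0.724, 0.655 and 0.709 FPKM, and it was at 0 in all libraries of stomach, aorta, heart, kidney, liver and spleen. The lung libraries were all high and close together, and no other library came near them. In reads, lung had 237, 244 and 258, and each brain library had exactly 1. The ratio of lung to brain was 311, with an exact 95% interval from counting of 106 to 1512. Against the 6 tissues with no read, where 3 reads over the tissue were taken as the limit, lung was at least 106-fold higher (liver) to at least 260-fold higher (spleen). The tissues ran lung, brain and then the 6 at 0, and 1 read per library does not set brain apart from those 6, since 0 reads in a library allows up to 3. In whole tissue, fewer cells of a type and less RNA per cell cannot be told apart.

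**Figure D1:**
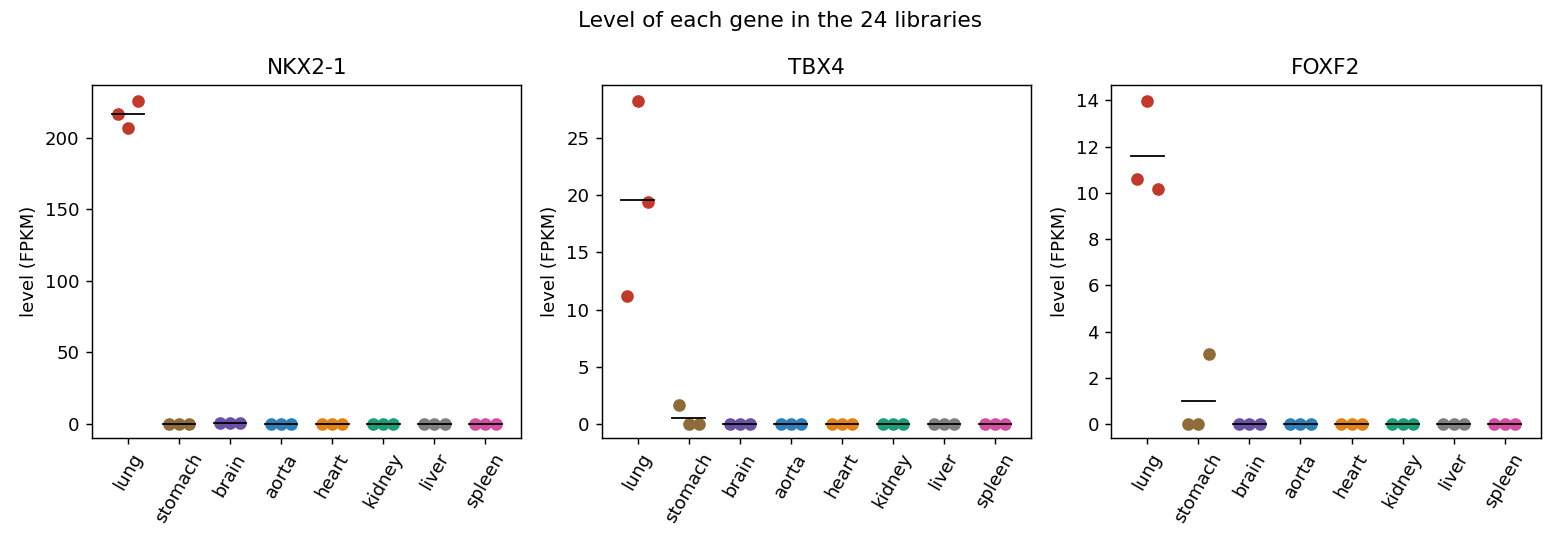
Level of NKX2-1, TBX4 and FOXF2 in FPKM (vertical axis, its own range in each panel) in the 3 libraries of each of 8 tissues. Points are libraries and lines are tissue means, and the lung points stand above those of every other tissue, with stomach 1 and stomach 3 the highest libraries outside lung for TBX4 and FOXF2.

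TBX4 gave 11.2, 28.2 and 19.4 FPKM in lung replicates 1, 2 and 3, a mean of 19.6 ± 8.51 FPKM (SD, n = 3). Outside lung it was above 0 in stomach replicate 1 alone, at 1.68 FPKM from 2 reads. All lung libraries stood above that stomach library, and the range of stomach, 0 to 1.68 FPKM, took in the tissues at 0. The ratio of lung to stomach was 36.1, with a 95% interval from counting of 9.76 to 301. Lung was at least 16.4-fold higher than liver and at least 48.3-fold higher than brain, the ends of the range over the 6 tissues with no read. The width of that range follows the depth of the other tissue, since liver was the shallowest and brain the deepest.

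FOXF2 gave 10.6, 14.0 and 10.2 FPKM in lung replicates 1, 2 and 3, a mean of 11.6 ± 2.08 FPKM (SD, n = 3). Its only other value was 3.02 FPKM in stomach replicate 3, from 2 reads. That stomach library lay nearer to lung than any other library did for the 3 genes, and the other stomach libraries were at 0. The ratio of lung to stomach was 12.7, with a 95% interval from counting of 3.31 to 109. Lung was at least 5.85-fold higher than liver and at least 17.2-fold higher than brain. FOXF2 was at 0 in brain, the site of the pericytes it is known from, where the limit over the tissue was 0.673 FPKM. Of 7 pericyte genes measured, RGS5, ANPEP, VTN and NOTCH3 were at 0 in brain too. KCNJ8 had 2 reads there and FOXC1 9, while ZIC1 averaged 76.6 FPKM. Most of these genes were thus barely seen, and the 0 of FOXF2 does not speak of pericytes. TBX4 and FOXF2 were each found in a stomach library, but not in the same one.

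On the log2(FPKM + 1) scale, lung minus the mean of the other 7 tissue means was 7.65 for NKX2-1, 4.21 for TBX4 and 3.54 for FOXF2. The SD between lung libraries on that scale was 0.06, 0.63 and 0.23. By mean lung FPKM, NKX2-1 stood 208th of 7493 genes, TBX4 1122nd and FOXF2 1426th. FPKM are per length of the human gene model, and a mouse gene counted on a human genome is measured through the sequence it shares with human, so this order is not an order of transcript numbers. All their lung libraries stood above all other libraries, as did those of 90 of 4260 kept genes (2.11%). Genes with at least 30 reads over the lung libraries and at most 3 over the other 21 numbered 4 of 7493, with thresholds chosen after the values were seen. They were NKX2-1 with 739 against 3, TBX4 with 116 against 2, FOXF2 with 41 against 2 and RAMP2, a partner of the adrenomedullin receptor in endothelium, with 34 against 1.

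The 3 genes differed in how evenly the lung libraries held them. The coefficient of variation was 4.32% for NKX2-1, 17.9% for FOXF2 and 43.5% for TBX4. TBX4 was 2.52 times as high in the highest lung library as in the lowest, and FOXF2 1.37 times. For TBX4 the exact 95% Poisson interval of lung replicate 1, 6.92 to 17.1 FPKM, did not meet that of replicate 2, 21.4 to 36.5 FPKM. The intervals of FOXF2, from 12, 17 and 12 reads, overlapped throughout, as did those of NKX2-1. Such intervals cover counting error only.

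**Figure D2:**
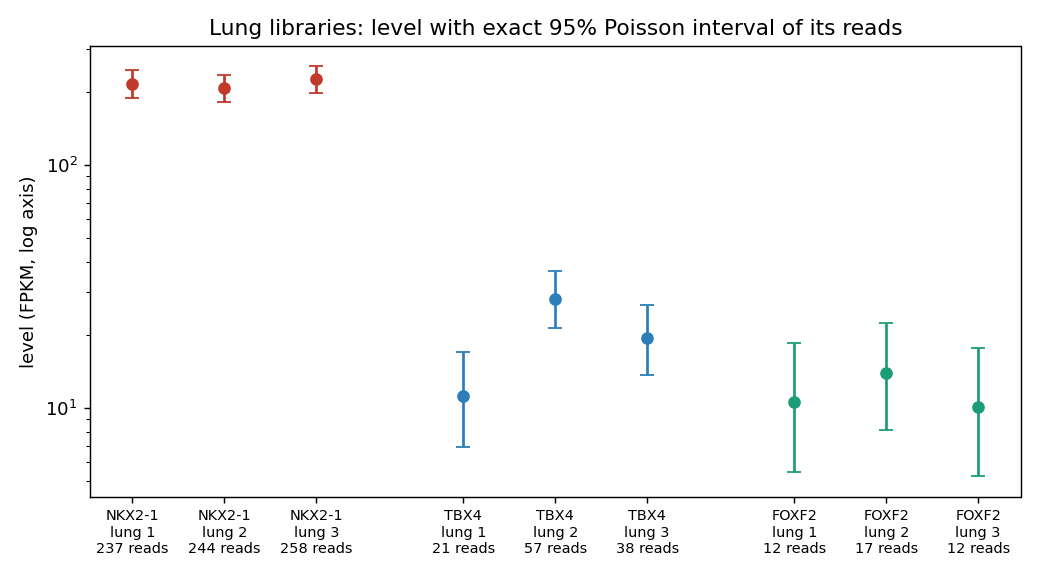
Level in FPKM (log axis) of NKX2-1, TBX4 and FOXF2 in each lung library, with the exact 95% Poisson interval of its reads as bars. The NKX2-1 intervals overlap one another, and the TBX4 interval of lung replicate 1 lies below that of replicate 2.

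The genes most like each of the 3 over the 24 libraries were found by Pearson's r on log2(FPKM + 1), given as a description of points that share tissue, depth and many zeros. The 3 correlated with one another at 0.97 (NKX2-1 and TBX4), 0.94 (NKX2-1 and FOXF2) and 0.92 (TBX4 and FOXF2). They were chosen for standing out in lung, so high r between them follows from the choice and is no finding. For NKX2-1 the 5 closest were LINC02178 (0.98), PIEZO2, a mechanically gated ion channel (0.97), TBX4, HS2ST1, a heparan sulfate sulfotransferase (0.96), and RSPO1, an enhancer of WNT signalling (0.94). For TBX4 they were LINC02178 (0.97), NKX2-1, EPAS1, the hypoxia-inducible factor also known as HIF-2 alpha (0.95), PIEZO2 (0.95) and RAMP2 (0.94). For FOXF2 they were LINC02178 (0.94), NKX2-1, PIEZO2 (0.93), TBX4 and RAMP2 (0.90). Over the 8 tissue means every r in these lists lay between 0.968 and 0.996, or 0.997 for TBX4 and FOXF2. LINC02178 had 5 reads in all 3 lung libraries together and RSPO1 15, so those places rest on few reads. LINC02178, PIEZO2, HS2ST1 and RSPO1 reached 1 FPKM in lung libraries alone, so they passed the filter only through lung.

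RAMP2 gave 11.5, 61.6 and 19.3 FPKM in lung replicates 1, 2 and 3, and EPAS1 gave 6.76, 18.1 and 5.72 FPKM. Both were highest in lung replicate 2, as TBX4 and FOXF2 were, while NKX2-1 was lowest there. Of the 6 like genes other than the 3 themselves, 5 were highest in lung replicate 2, and RSPO1 was highest in replicate 3. Of 3022 kept genes with a lung mean of at least 1 FPKM, 40.0% were highest in replicate 2. The like genes were picked by r over the same libraries, lung replicates among them, so their count cannot be weighed against that share. LINC02178 had only 1, 3 and 1 reads in lung replicates 1, 2 and 3.

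**Figure D3:**
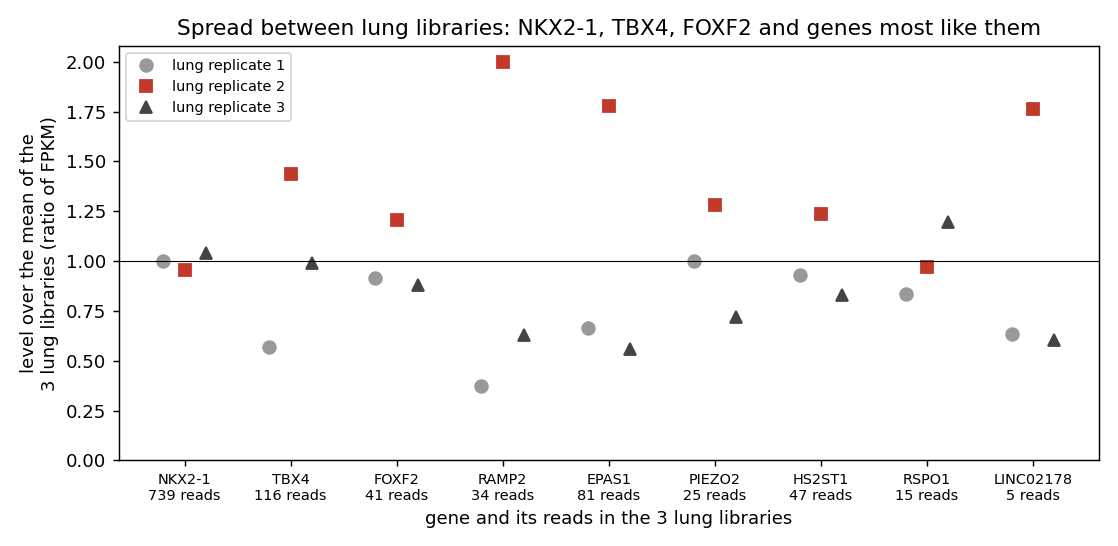
Level in each lung library divided by the mean of the 3 lung libraries (ratio of FPKM, vertical axis) for NKX2-1, TBX4, FOXF2 and the 6 genes most like them, with lung reads under each name. Squares mark lung replicate 2, which is the highest for TBX4, FOXF2 and 5 of the 6 like genes and the lowest for NKX2-1.

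Other genes of lung patterning were read from lists and tested with limma on log2(FPKM + 1), lung against the mean of the other 7 tissues. Calls needed a Benjamini-Hochberg adjusted p below 0.05 together with a minimum difference of 1. Lung was called higher for 508 of 4260 genes tested (11.9%) and lower for 155 (3.64%), and 54 (1.27%) were called higher in lung than in each other tissue. The median difference over all genes tested was 0.15. The 3 genes are among these 508, which is no finding, since they were chosen for it. The genes made by alveolar and airway epithelium, among them surfactant proteins that NKX2-1 drives, could not be followed, because 0 of 22 on the list were measured in the table used here. The same held for 0 of 12 defining lung markers, so the lung label was not checked with them.

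Transcription factors of lung endoderm and epithelium were higher in lung in 10 of 16 tested, and none was called lower. The list's median difference was 1.37. FOXA2, a forkhead factor of foregut endoderm, gave 29.1, 39.5 and 37.7 FPKM in lung, with a difference of 3.34 ± 0.29 (SE, adjusted p = 4.74e-08). FOXA1, its close relative, gave 42.9, 23.0 and 30.5 FPKM in lung (difference 3.16 ± 0.24, adjusted p = 6.90e-09). Neither was highest in lung: FOXA1 averaged 32.1 ± 10.1 FPKM in lung, 160 ± 17.7 FPKM in stomach and 38.0 ± 19.3 FPKM in liver (SD, n = 3 each). The Iroquois factors IRX5 and IRX3 were each higher by 2.58, CEBPA by 1.99 and SOX2, a factor of proximal airways, by 1.58. CEBPA averaged 66.9 FPKM in lung and 467 FPKM in liver. IRX3 averaged 17.1 FPKM in lung and 24.5 FPKM in kidney. SOX2 averaged 4.42 FPKM in lung, 10.8 FPKM in brain and 5.05 FPKM in stomach. SOX9, a factor of distal tips, was at 0 in every lung library and differed by -0.81, short of the minimum difference. None of the 16 was called higher in lung than in each other tissue.

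Transcription factors of lung mesenchyme were higher in lung in 7 of 16 tested, with none lower and a median of 0.91. TBX2, a T-box factor that sits beside TBX4 in the genome, gave 94.7, 104 and 117 FPKM in lung, a mean of 105 ± 11.4 FPKM. The next tissue was kidney, at 21.9, 20.0 and 35.2 FPKM, and no kidney library reached the lung libraries. TBX2 differed by 4.69 ± 0.39 (SE, adjusted p = 2.04e-08) and was the only gene of the list called higher in lung than in each other tissue. HOXA5, needed for lung morphogenesis, averaged 719 ± 40.6 FPKM in lung (difference 4.57, adjusted p = 8.42e-07). HOXB4 was higher by 2.64 and HOXB5 by 2.05. HOXB4 averaged 86.5 FPKM in lung, 91.1 FPKM in kidney and 87.3 FPKM in aorta. HOXB5 averaged 26.0 FPKM in lung, 41.4 FPKM in aorta and 33.7 FPKM in kidney. TCF21, a marker of lung fibroblast precursors, passed the adjusted p (0.00705) but not the minimum difference, at 0.84. FOXF1, the closest relative of FOXF2, had 1 read in lung and was not tested.

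Signalling genes used in branching were higher in lung in 12 of 19 tested, with none lower and a median of 1.28. VEGFA, the endothelial growth factor, averaged 833 ± 196 FPKM in lung (difference 3.13, adjusted p = 3.72e-09). The BMP receptor BMPR2 was higher by 2.96, the ligand WNT2 by 2.72 and the receptor FGFR3 by 1.87, and these and VEGFA were called higher in lung than in each other tissue. FGFR2, the receptor for FGF10, gave 23.3, 31.5 and 35.3 FPKM in lung and was higher by 2.33 (adjusted p = 6.83e-06). FGF10 itself had 5 reads over the lung libraries, a mean of 0.547 FPKM, and was too low to be tested. BMP4 averaged 293 ± 37.8 FPKM in lung and was higher by 2.17, though its mean in aorta was higher still, at 516 ± 226 FPKM. FGF18 and SPRY2, a brake on FGF signalling, were higher by 2.47 and 1.70. SHH, a ligand of the epithelium, did not reach the minimum difference (0.82), while its receptor PTCH1 was higher by 1.37 and the inhibitor HHIP by 1.28. HHIP averaged 3.66 FPKM in lung and 10.9 FPKM in aorta. Of the 29 calls in the 3 lung lists, 8 were lost when some single library was left out: PRRX1, OSR1 and TBX3 of the mesenchyme, KLF5, GATA6 and IRX2 of the epithelium, and HHIP and CTNNB1 of signalling. Without lung replicate 2 the adjusted p was 0.222 for PRRX1, 0.110 for OSR1 and 0.0593 for GATA6, and the difference was 0.78 for TBX3, 0.80 for IRX2, 0.99 for HHIP and 0.98 for CTNNB1. Without lung replicate 1 the adjusted p was 0.234 for OSR1 and 0.0677 for KLF5, and the difference of TBX3 was 0.98. Without lung replicate 3 the adjusted p was 0.171 for KLF5 and 0.153 for PRRX1, and the difference of IRX2 was 0.99. PRRX1 was also lost without replicate 2 of aorta, heart, spleen or brain or replicate 1 of kidney (adjusted p 0.0504 to 0.0519). PRRX1, OSR1, TBX3, IRX2 and CTNNB1 were lost under at least 1 other scaling of the libraries.

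**Figure D4:**
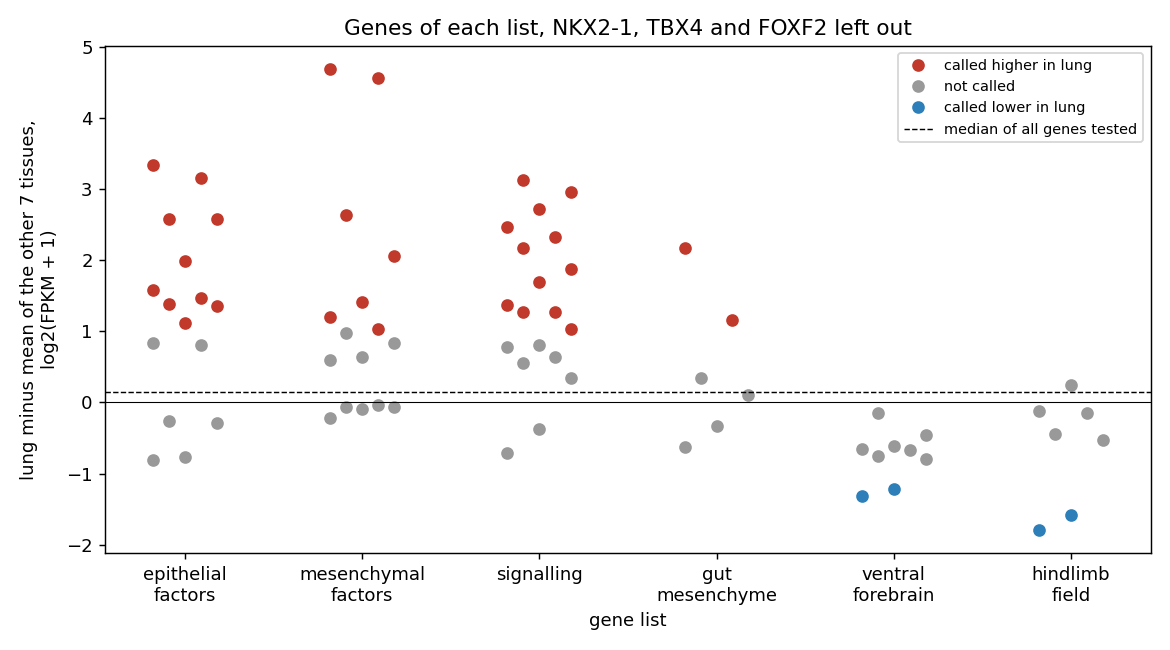
Lung minus the mean of 7 other tissues, in log2(FPKM + 1) units (vertical axis), for each tested gene of 6 lists, with NKX2-1, TBX4 and FOXF2 left out. Red points are called higher in lung, blue points lower and grey points neither, and the dashed line is the median of all genes tested, 0.15; the lung lists hold no blue point.

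The 3 factors also act outside lung, and genes of those sites were read in the same fit. Of 9 tested genes of ventral forebrain and hypothalamus, 0 were higher in lung and 2 were lower, among them DLX1 (-1.32, adjusted p = 0.00295). DLX1 and SIX3, which pattern the forebrain, averaged 84.7 and 30.4 FPKM in brain and were at 0 in every lung library. Their differences for brain were 5.85 and 4.84, where brain was called higher for 1019 of 4260 genes (23.9%). NKX2-1 had 3 reads over the same brain libraries.

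Of 4 thyroid genes measured, PAX8, HHEX and DIO1 were at 0 in lung, and the 1 tested, PAX8, was not called in lung. HHEX and DIO1 were hardly read in any tissue, with 3 reads and 1 read in aorta the most. PAX8 averaged 20.4 FPKM in kidney. Of 6 tested genes of gut mesenchyme, BMP4 and DES, a muscle filament, were higher in lung, and DES was no longer called without lung replicate 2 (adjusted p = 0.0809). DES was also no longer called under median-ratio scaling (0.95) or quantile normalization (0.86). In stomach, where FOXF2 and TBX4 had 2 reads each, 3 of the same 6 genes were called higher, BARX1, SIX2 and DES, and DES lost that call without stomach replicate 1 (adjusted p = 0.0870) or 2 (0.111). The stomach difference of DES was under the minimum without lung replicate 3 (0.9988) or spleen replicate 3 (0.9942) and under median-ratio scaling (0.87). FOXL1, FOXF1, PDGFRA and GREM1 of the same list were at 0 in every stomach library. BARX1, which specifies stomach, gave 9.05, 35.8 and 22.1 FPKM in stomach and 0 in lung (difference for stomach 4.35, adjusted p = 7.75e-12), where stomach was called higher for 326 of 4260 genes (7.65%). Of 7 tested genes of the hindlimb and caudal field, 0 were higher in lung, and HOXC10 (-1.80) and HOXC9 (-1.59) were lower. PITX1, which acts upstream of Tbx4 in the mouse hindlimb, averaged 37.2 ± 2.01 FPKM in stomach and 1.21 ± 1.05 FPKM in lung. Neither of the 2 tested pericyte genes, FOXC1 and ZIC1, was called in lung. ZIC1 was called higher in brain (6.28) and FOXC1 in aorta (4.07).

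Genes beside the 3 in the mouse genome, taken in the order of protein-coding genes, did not all share the lung pattern. Next to Nkx2-1 lies Mbip, and MBIP gave 14.5, 13.4 and 12.6 FPKM in lung (difference 2.67 ± 0.65, SE, adjusted p = 0.00344). Its highest library outside lung was stomach replicate 3, at 11.2 FPKM, below the lowest lung library. BRMS1L, one gene further, was not called in lung (1.05, adjusted p = 0.0855) and was called higher in brain (1.63, adjusted p = 0.00491). The antisense RNA NKX2-1-AS1 gave 6.10, 0 and 4.68 FPKM in lung and 0 elsewhere. No source used here says whether counting took strand into account, so NKX2-1 reads and those of its antisense partner cannot be told apart. Next to Tbx4 lies Tbx2, described above. Beyond it BCAS3 had 1 read in the whole series, in brain replicate 1, and was too low to be tested. Of the other measured genes up to 3 places from the 3, MED13 (0.37), RALGAPA1 (-0.40) and MYLK4 (-0.42) were not called in lung, and PPM1D, INTS2 and PAX9 were too low to be tested. Foxf2 lies between Foxq1 and Foxc1, forkhead genes both, with Gmds beyond. FOXQ1 averaged 371 ± 86.0 FPKM in stomach and 9.09 ± 5.14 FPKM in lung (difference for stomach 6.51, adjusted p = 2.26e-09). GMDS, an enzyme of GDP-fucose synthesis, averaged 111 ± 17 FPKM in stomach and 2.69 ± 1.28 FPKM in lung (5.21, adjusted p = 2.03e-09). FOXC1 averaged 26.5 ± 2.80 FPKM in aorta and 0.871 ± 0.600 FPKM in lung (difference for aorta 4.07, adjusted p = 1.63e-08), where aorta was called higher for 408 of 4260 genes (9.58%). None of these 3 neighbours of FOXF2 was called in lung.

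**Figure D5:**
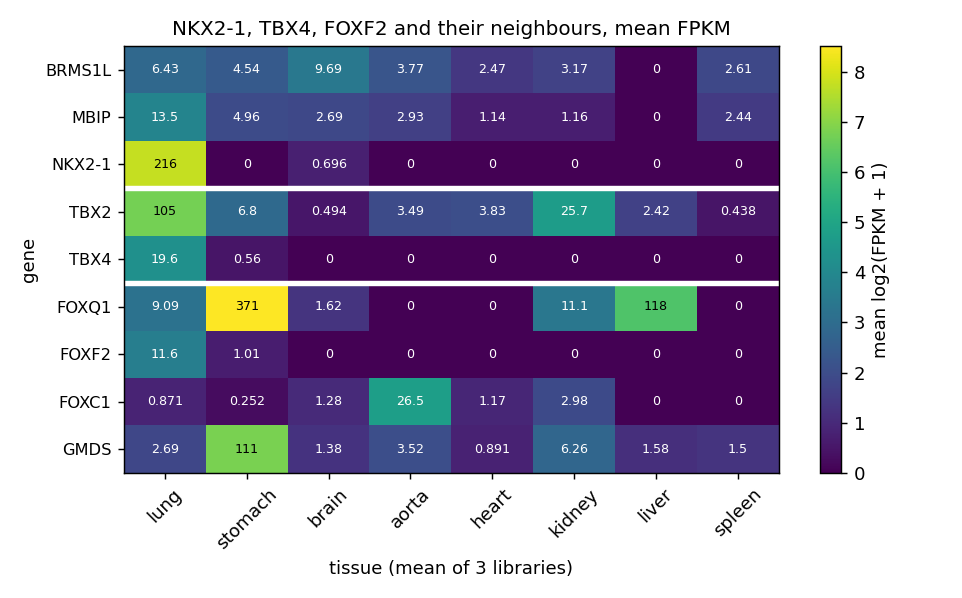
Mean level in 8 tissues (columns, 3 libraries each) of NKX2-1, TBX4, FOXF2 and the 6 tested genes within 2 places of them in mouse gene order (rows, white lines between the 3 regions). Colour is mean log2(FPKM + 1) and the printed numbers are mean FPKM, and TBX2 is highest in lung like TBX4, while FOXQ1 and GMDS are highest in stomach and FOXC1 in aorta.

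The rest of their families were read in the same fit. The table held 38 other NKX, T-box and forkhead genes, of which 27 were tested and 19 were called higher in at least 1 tissue. The share of all 4260 genes called in at least 1 tissue was not counted, so the 19 is not read as a trait of these families. Lung was called higher for 5 of the 27: TBX2, TBX3, FOXA1, FOXA2 and FOXP1. The count was 7 for stomach, 8 for brain, 5 for aorta, 3 for kidney, 3 for liver, 1 for spleen and 0 for heart. Over all 4260 genes the share called higher was 9.77% in kidney, 9.81% in liver, 11.5% in spleen and 6.41% in heart, beside the shares of lung, stomach, brain and aorta given above. FOXD3 in stomach and aorta, FOXO6 in aorta, FOXK2 and EOMES in brain, FOXD2 and FOXO3B in kidney and TBX3 in lung were lost when some single library was left out. TBX3 gave 1.36, 2.10 and 0.433 FPKM in lung, and its difference of 1.03 fell to 0.91 under median-ratio scaling, under the minimum. TBR1, a factor of cortical neurons, averaged 124 ± 41.5 FPKM in brain and was at 0 in lung. NKX2-2, a homeodomain factor of the ventral neural tube, averaged 9.87 ± 5.55 FPKM in brain and was at 0 in lung.

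Depth and other tissues in the lung libraries were read from the same table. Assigned reads were 461450 to 496563 in lung and 193900 to 642307 over all libraries, and replicates correlated at r = 0.94 to 0.97 across genes. Of 12 endothelial markers 6 were in the table, and KDR, with 7 lung reads, was too low to be tested. The markers were higher in lung in 5 of 5 tested, although CLDN5 was lost without lung replicate 3 (adjusted p = 0.0796). Summed levels of the 6 were 366 to 877 FPKM in lung libraries and 22.9 to 1095 FPKM in others. FLI1, the gene SENCR is antisense to, gave 565 ± 263 FPKM of that sum in lung, and TEK, the next, 17.2 FPKM. FLI1 was highest in spleen, at 696 ± 346 FPKM. Whether reads of the human transgene add to FLI1 was not tested. Skeletal muscle markers were higher in 4 of 4 tested, at 41.9 to 131 FPKM in lung and 0 to 57.2 in others, with TNNI2 and RYR1 at 0 in lung. Of 9 cardiomyocyte markers tested, 3 were higher and 1 lower, at 927 to 1242 FPKM in lung and up to 58977 in heart. MYL7, 1 of the 3, with 2 reads in lung, was lost without heart replicate 1 or 2 (difference 0.98 each), with voom (adjusted p = 0.226) and under median-ratio scaling (0.91) or quantile normalization (0.84). TNNC1, TNNI3, MYBPC3 and CKMT2 were at 0 in lung. NKX2-1, TBX4 and FOXF2 were themselves at 0 in all heart libraries. Summed markers of stomach, brain, smooth muscle, cardiomyocytes, kidney, liver and blood were each highest in a library of stomach, brain, aorta, heart, kidney, liver and spleen in that order. Single markers did not all follow these sums. Over the liver libraries HAO1 had 2099 reads, FGA 476 and CPS1 437, and each was highest in liver. ALB had 1 read there and APOA1 0, and both were highest in aorta, with 37 reads and 3 reads. The stomach markers ATP4A, PGC and BARX1 were at 0 in every lung library. Over the stomach libraries themselves ATP4A had 9 reads, PGC 1 and BARX1 31, so the lung zeros of ATP4A and PGC say little. The part of other tissues in the calls for lung lists was not tested.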

How the data were processed

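TRIzol was used for total RNA and a VAHTS Universal V10 kit for the libraries, per the labels' protocols. The submitters' processing notes name fastp, HISAT2, HTSeq and the human build GRCh38.p13, so mouse reads were counted where mouse and human sequence are alike. The authors deposited FPKM of 7493 genes with human symbols, and 6917 of the symbols (92.3%) matched a mouse protein-coding symbol when case was ignored.

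The scale was log2(FPKM + 1), on which low genes change less than they do in FPKM. The filter asked for 1 FPKM or more in 3 or more libraries and kept 4260 genes. A model of 8 tissue means over 24 libraries was fitted with limma 3.58.1 (R 4.3.3) and a mean-variance trend, and Benjamini-Hochberg adjustment ran over all kept genes within each contrast. FPKM values rose in equal steps, each worth 1 read, which gave whole reads for 7493 of 7493 genes (relative tolerance 1e-06). These reads served for depth, Poisson intervals, the limit of 3 reads, and an alternative test (voom). Without molecular identifiers, reads may repeat 1 molecule, so intervals cover counting error only. Intervals of ratios pooled the reads of the 3 libraries of a tissue. Between pairs of replicates, chi-square per degree of freedom was at least 2.90, more spread than counting gives. The intervals are thus too narrow for the spread between libraries.

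The members and lists were chosen with earlier results of these data known. Genes were named where a list or family member was called in lung, up to 8 per list by size, where a gene lay beside 1 of the 3, or where it was among the 5 most correlated with it; other list members were added as examples after their values were seen. Some genes counted in the lists are not reported here by name. The fit was tested on simulated data. Sequences and gene order are RefSeq's for the mouse, and the promoters are on GRCm38.p6. Alternatives were other pseudocounts, filters and scalings, a replicate block, no minimum difference and each library left out. Python 3.11.15, numpy 2.4.6, pandas 2.3.3, scipy 1.17.1 and matplotlib 3.10.9 were used.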

Additional observations from a re-analysis of the deposited data

How the results depend on the processing

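No result under any alternative run was reversed. The 508 genes higher and 155 lower in lung became 244 and 55 with a pseudocount of 5, 859 and 496 with no minimum difference, 633 and 458 with limma voom on recovered reads, 367 and 198 with median-ratio scaling, 361 and 215 with quantile normalization, and 592 and 213 with TPM scaling. The median difference of all genes was 0.15, and -0.02 with median-ratio scaling, -0.06 with quantile normalization and 0.24 with TPM scaling. The 54 genes higher in lung than in each other tissue became 32 with a pseudocount of 0.1 and 34 with 5. The 3 lung lists had 29 higher and 0 lower, and 19 higher with a pseudocount of 5. Lower calls there were 1 with a pseudocount of 0.1, 1 with TPM scaling, 1 with median-ratio scaling, 1 with voom and 2 with no minimum difference. The differences of NKX2-1, TBX4 and FOXF2 were 10.65, 7.32 and 6.62 with a pseudocount of 0.1, 5.44, 2.22 and 1.69 with 5, 9.19, 5.80 and 5.11 with TPM scaling, and 8.34, 5.70 and 4.31 with voom, and that of NKX2-1 was 7.41 with median-ratio scaling. With 1 library left out, higher calls ran from 403 to 519, lower calls from 133 to 157, genes above each other tissue from 40 to 56, and calls in the 3 lung lists from 22 to 30 higher and 0 to 1 lower. The difference ran from 7.65 to 7.65 for NKX2-1, 3.91 to 4.54 for TBX4 and 3.41 to 3.64 for FOXF2. Deviations of same-numbered replicates correlated at a median r of 0.02 over 84 pairs (range -0.06 to 0.13, 2 pairs over 0.1), so the numbers were not used as pairs. Single genes can still follow the number, as did FLI1 and ID2, both picked after their values were seen. FLI1 was lowest in replicate 2 in 8 of 8 tissues and highest in replicate 1 in 7 of 8. ID2 was highest in replicate 1 in 7 of 8 tissues. Whether numbers mark animals is not known. With a replicate block 510 genes were higher, 155 lower, 55 above each other tissue and 29 higher in the lists. Besides a pseudocount of 5, which ended calls by shrinking differences, 20 of the 29 list calls held under every alternative run. HOXB4 was lost with a pseudocount of 0.1 (adjusted p = 0.0593), and the cause was not tested. The alternatives for tissues other than lung were chosen after seeing the data. Depth limits the 3 genes outside lung: 0 reads in a library allows up to 3, which for NKX2-1 in liver replicate 3 is 6.51 FPKM.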
